A study of Rattus norvegicus with 8 samples.

Results

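The principal neurons of the hippocampus fall into subfields. Followed here were 8 of the 22601 genes measured in each library, markers of the dentate gyrus, CA1 and CA2/CA3 together with *Plk5*. The dentate gyrus members were *Prox1* (NCBI GeneID 305066), *Dsp* (306871) and *C1ql2* (288979), and *Plk5* (314627) is counted with them below. The CA1 members were *Wfs1* (83725) and *Fibcd1* (311861), and the CA2/CA3 members were *Pcp4* (25510) and *Amigo2* (300186). Apart from *Plk5*, they were chosen by their known place of expression with the values of these libraries in view. *Plk5* was chosen by its lower level in the PTZ group, so that its PTZ against Con. values are given as a description only. Its Q808 contrasts use the same PTZ or Con. libraries and are a description too. All 8 members were among the 15593 genes with a mean of at least 0.1 FPKM that were tested, and 6 of them had a mean of at least 1 FPKM. FPKM counts sequenced fragments relative to transcript length and to all mapped fragments of a library, so that levels of different genes can be set side by side on this scale.

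RNA of whole hippocampal tissue was sequenced from 8 wild-type Wistar rats, with 1 library per rat. The rats weighed 180 to 220 g when purchased, before kindling and treatment. The 3 rats of the Con. group received vehicle, and the 3 rats of the PTZ group received pentylenetetrazole and vehicle. The 2 rats of the Q808 group received pentylenetetrazole and then Q808, an anticonvulsant compound known by its code name. Pentylenetetrazole blocks GABA-A receptors, and its repeated injection at low dose kindles rats, which means that seizures become stronger with each injection. Kindling used 35 mg/kg every 48 h for 28 days, 14 injections in all, with 60 mg/kg on the last day, and Q808 was given by gavage at 30 mg/kg every 24 h for 28 days. After the last Q808 dose, the rats of both kindled groups had a further PTZ injection, at a dose the paper calls sub-convulsive, and seizures were scored. Tissue was taken after that, so that acute PTZ and any seizures that followed it are part of both groups. The paper reports lower seizure scores in Q808 than in PTZ rats, so that the acute response was not equal. The Q808 rats were kindled like the PTZ rats, and no group received Q808 alone. Each p-value below sets a difference between groups against the spread between the rats within them. Where a fit held a single Q808 library, that spread came from the other group.

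The hippocampus passes information from the granule cells of the dentate gyrus through their mossy fibers to CA3, and from there to CA2 and CA1. Each of these cell types keeps its own set of genes in the adult, and *Prox1*, a homeobox transcription factor, is needed for granule cells to keep their identity. Granule cells are studied in epilepsy for their role as a gate on the excitation that enters the hippocampus and for the sprouting of their mossy fibers after seizures. *C1ql2* encodes a secreted C1q-like protein of mossy fiber synapses, *Dsp* encodes desmoplakin of cell-cell junctions, and *Plk5* encodes a polo-like kinase family member expressed in brain. *Wfs1* encodes wolframin of the endoplasmic reticulum, *Fibcd1* a transmembrane protein with a fibrinogen domain, *Pcp4* a small calmodulin-binding protein and *Amigo2* a cell adhesion protein with Ig-like domains. Of these, *Pcp4* and *Wfs1* are also known in neurons of the striatum, outside the hippocampus.

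The promoters of *C1ql2* and *Pcp4* are shown because these members differed in opposite directions between the libraries described below. Each sequence runs from 250 bases before to 50 bases after the gene's start in the RefSeq annotation of GRCr8, 5′ to 3′ on the gene's strand, with motif matches in capitals. A promoter sequence was at hand for 6 of the 8 members, and for neither *Prox1* nor *Plk5*.
C1ql2, chr13:34023652-34023951, plus strand: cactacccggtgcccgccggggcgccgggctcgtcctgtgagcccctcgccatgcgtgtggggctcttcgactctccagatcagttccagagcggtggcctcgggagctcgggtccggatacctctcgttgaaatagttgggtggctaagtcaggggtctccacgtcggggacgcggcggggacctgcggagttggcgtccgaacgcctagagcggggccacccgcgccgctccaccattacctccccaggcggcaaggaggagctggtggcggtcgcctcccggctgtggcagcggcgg
Pcp4, chr11:49269936-49270235, plus strand: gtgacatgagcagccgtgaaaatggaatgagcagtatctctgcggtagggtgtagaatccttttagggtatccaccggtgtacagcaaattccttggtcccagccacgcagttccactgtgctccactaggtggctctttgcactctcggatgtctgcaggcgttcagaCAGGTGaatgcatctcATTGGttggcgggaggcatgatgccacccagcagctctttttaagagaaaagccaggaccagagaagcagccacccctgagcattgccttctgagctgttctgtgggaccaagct
The motifs searched on both strands were CANNTG (the E-box letters), held by 72.1% of all 33469 promoters of this length, TATAAA (the TATA box letters), held by 14.2%, CCAAT, held by 37.5%, and GGGCGG (the GC box letters), held by 33.1%. The *C1ql2* window held none of them, and the *Pcp4* window held 1 CANNTG and 1 CCAAT, the latter on the opposite strand and printed as ATTGG. The *C1ql2* window had a GC content of 70.3% and 33 CpG sites, above the medians of 51.7% and 7 over all promoters, and the *Pcp4* window had 53.3% and 7. A match is only a match of letters, since no binding or methylation was measured.

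The labelled tissue was checked with lists of marker genes, and the libraries fell into 2 sets, each with libraries of all 3 groups. For 8 striatum markers, the mean log2(FPKM + 0.1) lay between 1.91 and 2.76 in Con.-1, Con.-2, PTZ-1, PTZ-2 and Q808-2, and between 6.49 and 7.60 in Con.-3, PTZ-3 and Q808-1. These are called the striatum-low and striatum-high libraries below. Since the sets were made from measured values, differences between them are a description with no test. In the striatum-high libraries all 8 oligodendrocyte markers were higher (median log2 difference 1.21), all 6 pan-neuronal markers were lower (median -0.59), and the median over all tested genes was 0.10 higher. In such bulk tissue, fewer cells of a type and less RNA per cell cannot be told apart.

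**Figure D1:**
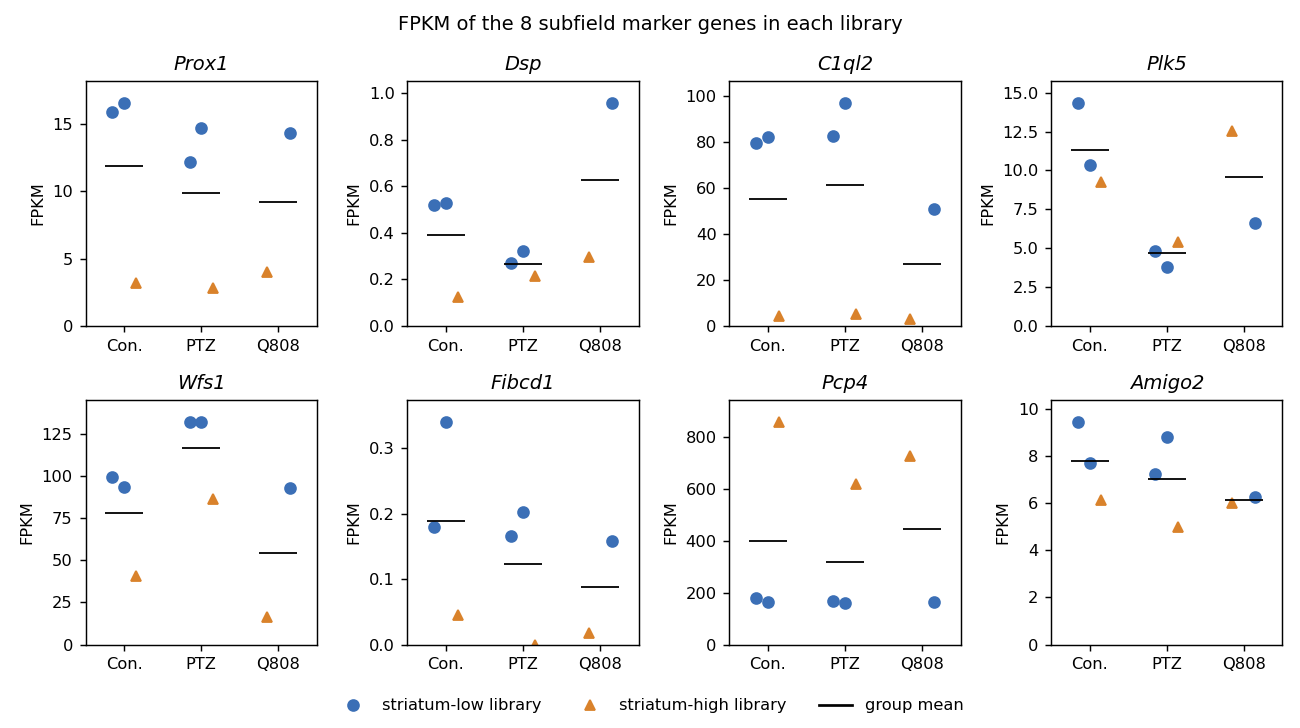
Level of each of the 8 genes (FPKM, linear axes that start at 0) in each library of the Con., PTZ and Q808 groups. Circles are striatum-low libraries, triangles are striatum-high libraries and bars are group means. *Prox1* and *C1ql2* sit far lower and *Pcp4* far higher in the 3 striatum-high libraries, while *Plk5* is at or below 5.42 in the PTZ libraries and at or above 6.63 in all others.

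Among the dentate members, *Prox1* and *C1ql2* followed the striatum sets in every group. The *Prox1* level was 15.9, 16.6 and 3.19 FPKM in Con.-1 to Con.-3, 12.2, 14.7 and 2.84 in PTZ-1 to PTZ-3, and 4.04 and 14.3 in Q808-1 and Q808-2. The 3 striatum-high libraries were thus the lowest ones and did not overlap with the other 5, at 3.36 ± 0.61 FPKM (SD, n = 3) against 14.7 ± 1.7 FPKM (SD, n = 5), which is 4.31-fold lower on the log2(FPKM + 0.1) scale. The *C1ql2* level was 79.5, 82.1 and 4.46 FPKM in the Con. libraries, 82.5, 96.7 and 5.09 in the PTZ libraries, and 3.23 and 50.6 in Q808-1 and Q808-2. *C1ql2* was 17.9-fold lower in the striatum-high libraries (log2 difference -4.16), a larger drop than in all but 0.0513% of tested genes. The difference was nearly the same in each group, at -4.15 in the Con., -4.11 in the PTZ and -3.93 in the Q808 libraries.

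The other dentate members did not part the sets. *Dsp* was low throughout, at 0.518, 0.528 and 0.125 FPKM in the Con. libraries, 0.270, 0.322 and 0.214 in the PTZ libraries, and 0.295 and 0.957 in the Q808 libraries. The sets overlapped for *Dsp*, with a log2 difference of -0.93 over all libraries, -1.47 within Con., -0.33 within PTZ and -1.42 within Q808, so that it was lower in the striatum-high library of each group. *Plk5* was at 14.3, 10.3 and 9.23 FPKM in the Con. libraries, 4.85, 3.80 and 5.42 in the PTZ libraries, and 12.6 and 6.63 in the Q808 libraries. Its level in Con.-3, PTZ-3 and Q808-1 overlapped with that in the other 5 libraries, and the difference between the sets was 0.26 on the log2 scale, -0.39 within Con., 0.33 within PTZ and 0.91 within Q808. The ratio of *Plk5* to *C1ql2* in FPKM was 0.039 to 0.180 in the striatum-low libraries and 1.06 to 3.89 in the striatum-high ones. *Plk5* thus did not follow *Prox1* and *C1ql2* between the sets. Among the further granule cell genes described below, *Dock10*, *Fam163b* and *Stxbp6* also overlapped between the sets.

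The CA1 members were both lower in the striatum-high libraries. *Wfs1* was at 99.4, 93.2 and 40.6 FPKM in the Con. libraries, 131.9, 132.1 and 86.2 in the PTZ libraries, and 16.0 and 93.0 in the Q808 libraries. The sets did not overlap, with a log2 difference of -1.50 that ran from -0.61 within the PTZ group to -2.53 within the Q808 group. *Fibcd1* was near the lower limit of the scale, between 0.159 and 0.340 FPKM in the striatum-low libraries, at 0.0453 and 0.0173 FPKM in Con.-3 and Q808-1, and listed at 0 in PTZ-3. A fold is not given for *Fibcd1*, since its size depends on the value added before the logarithm.

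The CA2/CA3 members differed from each other in direction. *Pcp4* was at 178.5, 165.1 and 859.9 FPKM in the Con. libraries, 168.7, 161.5 and 620.8 in the PTZ libraries, and 729.5 and 162.3 in the Q808 libraries. It was even among the striatum-low libraries, at 167.2 ± 6.9 FPKM (SD, n = 5), and 4.37-fold higher in the striatum-high ones, more than in 99.3% of tested genes. *Amigo2*, which overlaps *Pced1b* in the annotation, was at 9.44, 7.71 and 6.13 FPKM in the Con. libraries, 7.21, 8.80 and 4.99 in the PTZ libraries, and 6.0 and 6.24 in the Q808 libraries. The sets did not overlap for *Amigo2* but nearly met, with a log2 difference of -0.45, which became 0.16 when the mean of the pan-neuronal list was subtracted from each library. In all, 6 of the 8 members did not overlap between the sets, as did 24.8% of all tested genes. The members were chosen with the values of these libraries in view, so that these shares are no test of enrichment. *Fibcd1* is among the 6, with a mean of 0.209 FPKM in the striatum-low and 0.0208 FPKM in the striatum-high libraries. It reached the mean needed for testing only through the striatum-low libraries.

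**Figure D2:**
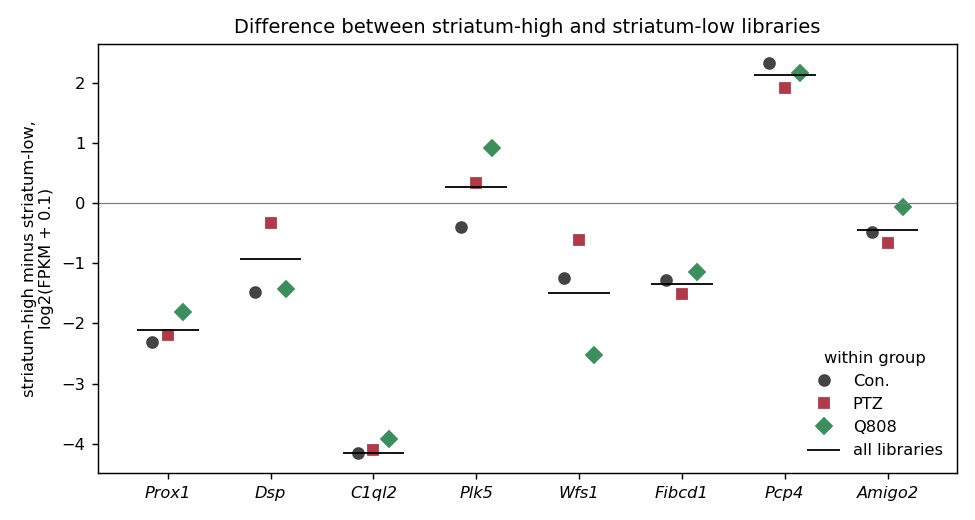
Difference between striatum-high and striatum-low libraries in log2(FPKM + 0.1) for each gene, over all 8 libraries (bars) and within the Con., PTZ and Q808 groups (points). The 3 points of *C1ql2* lie together near -4 and those of *Pcp4* near 2, while the points of *Plk5* run from -0.39 to 0.91, on both sides of 0.

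Further markers of the subfields were measured for the same sets. Of 8 tested genes of the dentate granule list, 6 were lower and 2 higher in the striatum-high libraries, with a median log2 difference of -0.81. The difference was largest for *Neurod1* (-3.96), a transcription factor of granule cell development, and opposite for *Pdia5* (1.73), a protein disulfide isomerase. Of 7 tested CA1 genes 5 were lower, with *Ndst4*, a heparan sulfate sulfotransferase, lowest at -3.42. Of 6 tested CA3 genes 5 were lower, with *Bok*, a Bcl-2 family member, at -1.65 and *Cdh24*, a cadherin, at 0.64. The 6 tested CA2 genes were divided, 3 lower and 3 higher, from *Ntf3*, a neurotrophin, at -3.50 to *Vit*, an extracellular matrix protein, at 1.45. Over all tested genes, 40.2% were lower in the striatum-high libraries.

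Whether kindling changed the subfield markers was asked by comparing the PTZ and Con. groups. Only *Plk5* was called (limma, unadjusted p under 0.05 and over 1.5-fold), as were 2.53% of all tested genes, and *Plk5* had been chosen on this contrast. It was at 11.3 ± 2.7 FPKM in the Con. group (SD, n = 3) and 4.69 ± 0.82 FPKM in the PTZ group (SD, n = 3), a log2 fold change of -1.24. Its 3 PTZ libraries lay below the 3 Con. libraries, as for 5.03% of all tested genes, while 9.15% did not overlap in either direction. The difference had the same direction in both sets, at -1.48 in the striatum-low and -0.76 in the striatum-high libraries.

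*Wfs1* was higher in the PTZ group by 0.66 on the log2 scale, but the groups overlapped and it was not called (limma, SE 0.36, adjusted p = 0.999). With the replicate number as a block, the same difference had an SE of 0.16 and was called (limma, adjusted p = 0.71), as were 3.95% of all tested genes. Replicate 3 is striatum-high in both groups, so that the block also removes the difference between the sets. The PTZ library was above the Con. libraries of its own set in each case, at 131.9 and 132.1 against 99.4 and 93.2 FPKM among the striatum-low and at 86.2 against 40.6 FPKM among the striatum-high libraries. In the striatum-low libraries alone the difference was 0.45 (limma, adjusted p = 0.0844, the lowest among the alternatives tried), which is 1.37-fold and under the 1.5-fold limit.

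The other 6 members were not called between PTZ and Con., each with an adjusted p of 0.999 in limma. Their log2 fold changes ran from -0.38 for *Fibcd1* to 0.16 for *C1ql2*. The 95% intervals were wide, from -3.31 to 3.63 for *C1ql2* and from -2.16 to 1.68 for *Prox1*, and narrowest for *Amigo2*, from -0.79 to 0.46. For *C1ql2*, *Prox1* and *Pcp4*, the spread within each group was mainly that between the sets.

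**Figure D3:**
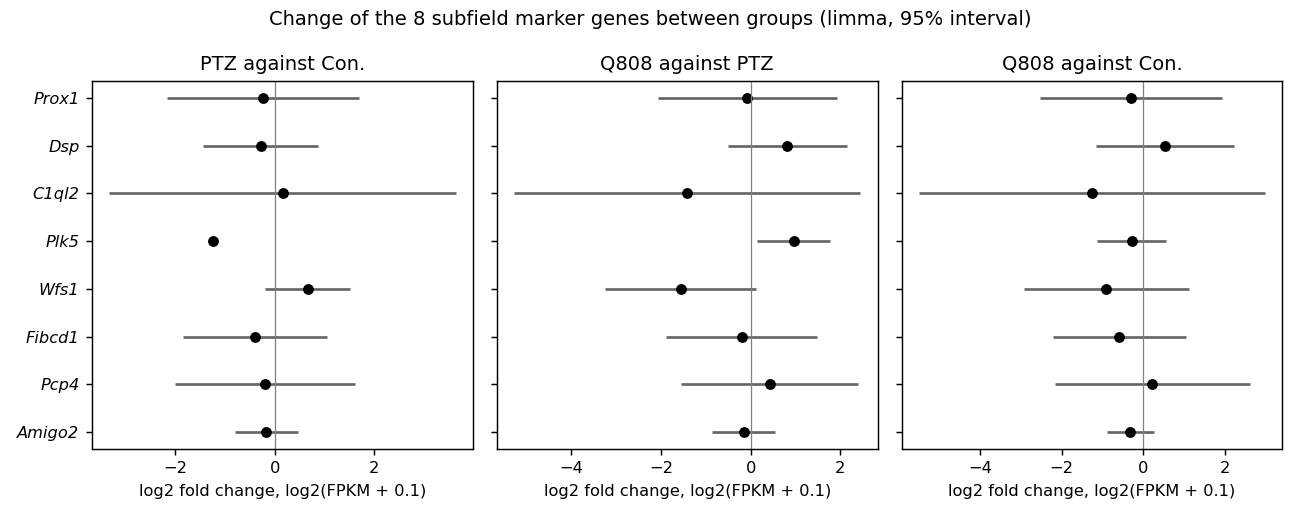
Log2 fold change (log2(FPKM + 0.1) scale) of each gene between the PTZ and Con. groups, the Q808 and PTZ groups and the Q808 and Con. groups, with the 95% interval from limma as a line. *Plk5* in PTZ against Con. is drawn without an interval because it was chosen on that contrast, and the intervals of *C1ql2* are the widest in all 3 panels.

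Treatment was addressed by comparing Q808 with PTZ, which shares the PTZ libraries with the comparison above. *Plk5* was again the only member called, at a log2 fold change of 0.96 (limma, SE 0.34, adjusted p = 0.952), as were 1.92% of all tested genes. Both Q808 libraries lay above the 3 PTZ libraries on which the gene was chosen, as for 10.6% of all tested genes, while 15.6% did not overlap in either direction. The call was lost in the striatum-low libraries alone, where Q808-2 stood against 2 PTZ libraries (log2 difference 0.61, limma adjusted p = 0.412). It was also lost at a 2-fold limit and without Q808-1, PTZ-1 or PTZ-2, with log2 fold changes of 0.50 to 1.42 over the libraries left out. Its adjusted p ran from 0.385 upward over all alternatives. Between Q808 and Con. no member was called, against 3.46% of all tested genes, and no member had groups that did not overlap, against 20% of them. At an unadjusted p under 0.05, no member passed in limma either, and *Plk5* stood at -0.28 (95% interval -1.12 to 0.56). *Plk5* differed from Con. by -0.87 in the striatum-low libraries, on the single library Q808-2, and by 0.44 in the striatum-high ones. The PTZ and Con. libraries in these comparisons are those on which *Plk5* was chosen, so that its calls and intervals here are a description.

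*C1ql2* was lowest in the Q808 library of each set, at 50.6 FPKM against 79.5 to 96.7 in the other striatum-low libraries and at 3.23 against 4.46 and 5.09 in the other striatum-high ones. Over all libraries it was not called, at -1.41 against PTZ (limma, adjusted p = 0.952) and -1.25 against Con. (limma, adjusted p = 0.907). With the mean of the striatum list as a covariate it was called in both comparisons. The log2 fold change was then -0.88 against PTZ (limma, SE 0.18, adjusted p = 0.694, 4.19% of all tested genes called) and -1.12 against Con. (limma, SE 0.24, adjusted p = 0.387, 7.39% called). In the striatum-low libraries alone, Q808-2 was lower by -0.82 than PTZ (limma, adjusted p = 0.275, 9.26% called) and by -0.67 than Con. (limma, adjusted p = 0.578, 4.71% called). The lowest adjusted p over all alternatives was 0.275 against PTZ and 0.387 against Con. The fits on the striatum-low libraries hold a single Q808 library, which is assumed to vary like the libraries of the other group.

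*Wfs1* differed by -1.56 between Q808 and PTZ and was not called over all libraries (limma, SE 0.69, adjusted p = 0.952). With the striatum list as a covariate it was called, at -1.37 (limma, adjusted p = 0.694, with 0.294 as the lowest over all alternatives). This value rested mainly on Q808-1, since *Wfs1* was 5.35-fold lower in Q808-1 than in PTZ-3 and 1.42-fold lower in Q808-2 than in PTZ-1 and PTZ-2. *Prox1*, *Pcp4* and *Amigo2* had log2 fold changes of -0.07, 0.42 and -0.15 in Q808 against PTZ, and their groups overlapped.

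The further subfield lists were also compared over all libraries. None of the 8 dentate granule genes, the 6 CA2 genes or the 6 CA3 genes was called in any of the 3 comparisons. Of the 7 CA1 genes, *Man1a1*, a mannosidase of glycoprotein processing, fell in Q808 against PTZ (-0.78, limma, adjusted p = 0.952), and *Pou3f1*, a POU transcription factor, fell in Q808 against Con. (-0.69, limma, adjusted p = 0.901). With 1.92% and 3.46% of all tested genes called in these comparisons, 1 call in a list of 7 genes is no result about the list.

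A second look at kindling within the striatum-low libraries alone compared 2 PTZ with 2 Con. libraries. In these 4 libraries more genes were called than in the full groups, 5.71% of tested genes lower and 4.1% higher in PTZ, and 140 genes had an adjusted p under 0.05 in limma. Among the members only *Plk5* was called there, 2.79-fold lower in PTZ, in 4 of the libraries on which it was chosen, so that this too is a description. *Prox1* was at 15.9 and 16.6 against 12.2 and 14.7 FPKM (log2 difference -0.28), and *C1ql2* at 79.5 and 82.1 against 82.5 and 96.7 FPKM (0.15).

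Several further genes of granule cells fell in PTZ within these libraries. Of 8 tested genes of that list, 4 were called lower and none higher, and 5 had both PTZ libraries below both Con. libraries, as did 38.3% of all tested genes. The median over the 8 genes was -0.52, beside -0.11 over all tested genes, and Benjamini-Hochberg adjustment over all tested genes kept 1 of the 4. *Neurod1* fell from 15.3 and 15.6 to 7.81 and 6.67 FPKM (log2 fold change -1.09, limma, adjusted p = 0.0393). *Fam163b* fell from 39.5 and 37.7 to 25.2 and 21.6 FPKM (-0.73, limma, adjusted p = 0.0643). *Dock10*, a guanine nucleotide exchange factor, fell from 12.5 and 13.1 to 8.51 and 7.83 FPKM (-0.64, limma, adjusted p = 0.0976). *Stxbp6*, a SNARE-binding protein, fell from 16.8 and 16.3 to 12.2 and 9.93 FPKM (-0.59, limma, adjusted p = 0.138).

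None of these 4 genes was called between the full PTZ and Con. groups. The library PTZ-3 held 2.44 FPKM of *Neurod1* against 0.311 in Con.-3, the opposite direction, and the log2 fold change over all libraries was 0.15 (limma, adjusted p = 0.999). *Fam163b* (26.0 against 22.8 FPKM) and *Stxbp6* (10.5 against 5.69 FPKM) were also higher in PTZ-3 than in Con.-3. *Dock10* kept its direction in both sets, with PTZ-3 at 8.87 and Con.-3 at 11.4 FPKM, and its 3 PTZ libraries lay below the 3 Con. libraries. Its log2 fold change over all libraries was -0.55 (limma, adjusted p = 0.999), under the 1.5-fold limit. In Q808-2, *Neurod1* was at 11.3, *Fam163b* at 34.5 and *Dock10* at 10.6 FPKM, between the PTZ and the Con. libraries of its set. *Stxbp6* was at 10.6 FPKM there, within the PTZ range. The other Q808 library, Q808-1, differed from this. It was below both PTZ-3 and Con.-3 for *Neurod1* (0.222 FPKM) and *Fam163b* (15.6 FPKM). For *Dock10* (14.1 FPKM) it was above both, and for *Stxbp6* (6.50 FPKM) between them. Of the other hippocampal lists, the CA2 gene *Ntf3* fell in the striatum-low libraries (-1.09, limma, adjusted p = 0.108), and no CA1 or CA3 gene was called there. *Ntf3* was higher in PTZ-3 (1.95 FPKM) than in Con.-3 (0.120 FPKM). In a list of 8 genes of hippocampal pyramidal and granule neurons, *Tbr1*, a T-box transcription factor, rose (0.77, limma, adjusted p = 0.175) and *Lmo3*, a LIM domain protein, fell (-0.59, limma, adjusted p = 0.0827). In PTZ-3 against Con.-3, *Tbr1* was lower (7.08 against 10.8 FPKM), and so was *Lmo3* (31.5 against 45.7 FPKM).

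Choroid plexus markers moved with the same libraries. All 6 genes of that list were called lower in PTZ within the striatum-low libraries (median -2.54), and their mean log2(FPKM + 0.1) was 4.26 and 4.44 in Con.-1 and Con.-2, 1.96 and 1.58 in PTZ-1 and PTZ-2, and 5.83 in Q808-2. *Dsp* had the same order, lowest in PTZ-1 and PTZ-2 and highest in Q808-2, and so did neither *Prox1* nor *C1ql2*. For *Dsp* the difference within these libraries was -0.66 between PTZ and Con. and 1.42 between Q808-2 and PTZ, where it was called (limma, adjusted p = 0.363, the lowest over the alternatives, 9.26% of all tested genes called) on the single library Q808-2. The part of the choroid plexus markers in these differences was not tested.

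**Figure D4:**
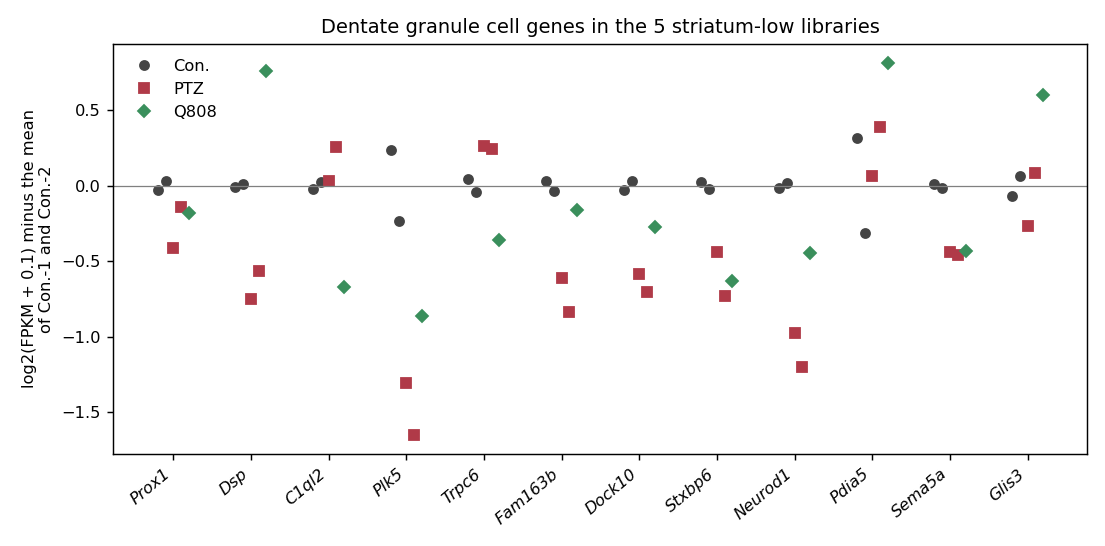
Difference of each striatum-low library from the mean of Con.-1 and Con.-2 in log2(FPKM + 0.1), for the 4 dentate members and the 8 tested further genes of granule cells. Points are single libraries, and both PTZ points lie below both Con. points for *Plk5*, *Prox1*, *Dsp*, *Fam163b*, *Dock10*, *Stxbp6*, *Neurod1* and *Sema5a*. The same holds for 38.3% of all tested genes. Both PTZ points lie above both Con. points for *C1ql2* and *Trpc6*, as for 15.8% of all tested genes.

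Genes with a pattern like that of each member were sought among the genes with a mean of at least 1 FPKM, after the mean of its striatum set had been subtracted from each library. The 3 with the highest Pearson r over the 8 libraries are named, as a description. For *Plk5* these were *Spout1* (r = 0.984), an uncharacterized zinc finger gene (GeneID 103694018, 0.983) and *Tbc1d7* (0.979). For *Wfs1* they were *Ndst3* (0.985), *Naa30* (0.984) and *Fam43b* (0.983), and for *C1ql2* they were *Tent4b* (0.978), *Crabp1* (0.960) and *Uso1* (0.956). For *Prox1* they were *Mtcp1* (0.967), *Stx7* (0.965) and *Pum3* (0.952), and for *Pcp4* they were *Dstyk* (0.981), *Sema3e* (0.970) and *Chn2* (0.967). The lowly expressed members gave *Tmem51*, *Ints6l* and *Lama2* for *Dsp* (0.979 to 0.985), and *Adora2a*, *Drd2* and *Rnf24* for *Fibcd1* (0.927 to 0.953). *Adora2a* and *Drd2* are striatum markers used to make the sets. Both were higher in the striatum-high libraries (log2 differences 5.28 and 5.22), where *Fibcd1* was lower. *Fibcd1* was at or under 0.0453 FPKM there, so that its r rests partly on values near the lower limit. For *Amigo2* the values were lower, at 0.934 for *Rpl39-ps12*, 0.910 for GeneID 103689968 and 0.900 for *Gal*.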

How the data were processed

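Hippocampal RNA of 8 rats was sequenced by the authors. Reads were trimmed with Trimmomatic, and the deposited FPKM per gene came from Cufflinks, run by the authors, and cover 22601 genes per library. Per the study's methods, HTSeq gave the read counts used in the authors' own differential expression test. The submitters' processing notes also list HISAT2, Bowtie2, StringTie and SAMtools, with no role or version, and the genome build was not given in the sources used here. Read counts were not used here, and the deposited FPKM hold no depth per library, so no counting error is given. The precision of each value is the spread between rats. Strand was not stated, and *Amigo2* overlaps *Pced1b* in the annotation.

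Groups and replicate numbers were taken from the labels, and genes were matched by NCBI GeneID, with symbols from the RefSeq table of GRCr8 for 20633 genes. Genes whose FPKM averaged at least 0.1 over all libraries, 15593 in all, were fitted on log2(FPKM + 0.1) with limma 3.58.1 (empirical Bayes with a trend) in R 4.3.3, each comparison on its own 2 groups. This scale understates the change of low genes. Genes were called where the unadjusted p was under 0.05 and the change over 1.5-fold, and adjusted p-values are Benjamini-Hochberg values over all tested genes. Tables and figures were made with numpy 2.4.6, pandas 2.3.3 and matplotlib 3.10.9 (Python 3.11.15). Simulated data with known changes were used to test the limma fits.

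The members and lists were chosen with earlier results of these data known. The 8 members are always named. Of the other lists, genes called in a comparison and those with the largest and smallest difference between the striatum sets are named, with the 3 genes most like each member. A gene that this rule would name is not reported here. The granule cell genes called within the striatum-low libraries, and *Trpc6*, were named after their values were seen. The sets were parted at the largest gap of the striatum list mean.

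The labels give the Con. and PTZ libraries the same replicate numbers, from different rats. Same-numbered libraries deviated together from their group means across genes, with correlations of 0.212, 0.299 and 0.422. PTZ-1 and Con.-2 reached 0.322, and the libraries numbered 3 are both striatum-high, so that the numbers and the sets cannot be fully told apart. All same-numbered pairs of PTZ and Con. were over 0.1, the limit used for pairing. For this comparison the blocked value is given where it changes a call. The alternatives were pseudocounts of 1 and 0.01, no filter on low values, all groups in a fit, an FPKM filter of 1, no trend, quantile and median ratio scaling, the replicate block, a 2-fold limit, the striatum-low libraries alone, the striatum list as a covariate and each library left out.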

Additional observations from a re-analysis of the deposited data

How the results depend on the processing

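The count of members called in PTZ against Con. was 1 under all alternatives but the replicate block, which gave 2, with 3.95% of all tested genes called. The call common to them is *Plk5*, which was chosen on these libraries, so that this is no sign of stability. In Q808 against PTZ the count went from 1 to 0 at a 2-fold limit and to 3 with the striatum covariate. With that covariate 4.19% of all tested genes were called, against 1.92% without it. In Q808 against Con. the count went from 0 to 1 with the covariate, where 7.39% of all tested genes were called, against 3.46% without it. In both comparisons the count also moved with the replicate block, in the striatum-low libraries alone and over the libraries left out. Same-numbered Q808 libraries did not pair, with correlations of -0.295 and 0.322 to PTZ and -0.379 and 0.527 to Con., and replicate 1 of Q808 is striatum-high while that of the other groups is not. The mean difference of the dentate members between the sets was -1.73, with *Plk5* (0.26) counted among them. This mean became -1.46 with a pseudocount of 1 and -1.12 relative to the pan-neuronal list.

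Under all alternatives fitted, *Dsp* and *Wfs1* kept their sign when PTZ was compared with either other group. So did *Amigo2* and *Fibcd1* between Q808 and Con. Elsewhere, members not called over all libraries changed sign under at least 1 of the alternatives. *C1ql2* in PTZ against Con. became -0.18 with the covariate, *Prox1* in Q808 against PTZ became 0.10 in the striatum-low libraries and 0.19 with the covariate, and *Pcp4* in the striatum-low libraries became -0.024 against PTZ and -0.081 against Con. Leaving out 1 library at a time gave log2 fold changes in PTZ against Con. of -1.22 to 1.53 for *C1ql2*, -0.83 to 0.58 for *Pcp4*, -1.01 to 0.49 for *Prox1*, -0.81 to 0.12 for *Fibcd1* and -0.34 to 0.059 for *Amigo2*. In Q808 against PTZ the ranges were -0.97 to 0.83 for *Prox1*, -3.38 to 0.55 for *C1ql2*, -0.77 to 0.37 for *Fibcd1*, -0.66 to 1.51 for *Pcp4* and -0.38 to 0.027 for *Amigo2*. In Q808 against Con. they were -1.21 to 0.59 for *Prox1*, -3.22 to 0.71 for *C1ql2*, -2.16 to 0.36 for *Wfs1*, -0.86 to 1.31 for *Pcp4*, -0.17 to 1.25 for *Dsp* and -0.73 to 0.18 for *Plk5*. With 1 Q808 library left, it is assumed to vary like the libraries of the other group. *Dsp* and *Fibcd1* could not be fitted at a mean FPKM of at least 1. The causes of these shifts were not tested.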

Other observations

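Among the lists of other cell types, the following genes were called over all libraries, beside 2.53%, 1.92% and 3.46% of all tested genes in the 3 comparisons. In PTZ against Con., *Pecam1* of endothelial cells (0.63) and *Tmem119* of microglia (0.60) rose and *Shox2* of the thalamus list (-1.93) fell on the log2 scale, each with an adjusted p of 0.999 in limma. In Q808 against PTZ, *Shox2* (3.46) and *Kcne2* of the choroid plexus list (2.10) rose, each with an adjusted p of 0.952 in limma. In Q808 against Con., *Aif1* of microglia (0.79), *Cldn5* of endothelial cells (0.65) and *Shox2* (1.53) rose, each with an adjusted p of 0.901 in limma. None of the 5 astrocyte, 8 oligodendrocyte, 6 pan-neuronal or 8 striatum genes was called in these comparisons.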
